A study of Mus musculus with 2 samples.

Results

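The genes described here are 9 enzymes of the mevalonate and sterol synthesis pathway, Hmgcs1, Mvk, Pmvk, Mvd, Idi1, Fdps, Fdft1, Sqle and Lss, out of 21317 protein-coding genes with a start site on mm10. They were listed by name with earlier results of these data in view, so the promoter occupancy and signal values below describe them and test nothing. Chromatin immunoprecipitation with an antibody to NRF1 (nuclear respiratory factor 1) was followed by sequencing in CH12.LX, an immortalized B-cell lymphoma line labelled female and of mouse strain B10.H-2aH-4bp/Wts. The labels give 2 biological replicates with the same donor, name no treatment and form 1 group, so the data show binding in 1 cell line only. The lists measure DNA binding and not RNA, so the labelled cell type could not be checked against marker expression, and the control library was not analysed here. A peak was assigned to a gene when its summit, the position of highest signal, lay within 1000 bp of the gene's outermost RefSeq start, and such a gene is called occupied.

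The mevalonate pathway turns acetyl-CoA into isoprenoid units, and its sterol branch joins these into squalene and closes the rings to give lanosterol, the precursor of cholesterol. Transcription of these genes is known to follow cell sterol levels through the SREBP factors, which bind sterol regulatory elements in promoters together with NF-Y at CCAAT boxes and Sp1 at GC boxes. NRF1 binds a palindromic GC-rich element as a dimer and is best known for promoters of nuclear genes that encode mitochondrial proteins.

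The promoter sequences shown here come from the RefSeq promoter table of GRCm38.p6, which gives 250 bases before to 50 after each start. They are written 5′ to 3′ on the strand of the gene. Positions given with a sequence count from the start base of that table, which is 0. Of the 9 genes, 6 had an entry, and Fdps, Fdft1 and Sqle did not. The stretches of Mvd and Lss hold the closest matches to the NRF1 consensus, and capitals mark those matches. The Mvd stretch is chr8:122443603-122443672, minus strand, from -250 to -181, and the Lss stretch is chr10:76531585-76531614, plus strand, from -20 to 9.
Mvd: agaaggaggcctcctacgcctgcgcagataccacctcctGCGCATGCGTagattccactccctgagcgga
Lss: ccgaggctcGCGCCTGCGCagtgcactagg
The third stretch lies under the summit shared by Mvk and its divergent neighbour Mmab, on the minus strand at chr5:114443978-114444007, and capitals mark 2 overlapping NRF1 half-sites.
Mmab: atgcgttaccgTGCGCAtggctgtgtggct
The next 3 stretches are promoter sequence of genes with weaker peaks and hold elements known for sterol genes. Mvd and Lss also hold CCAAT and GC boxes in their windows, but outside the stretches printed above. The Hmgcs1 stretch lies inside its peak, the Mvk stretch overlaps its peak only at the upstream end, and the Idi1 stretch ends just before its peak begins. Capitals mark the CCAAT boxes, which read ATTGG where they lie on the other strand, and, in Hmgcs1, the sterol regulatory element TCACCCCAC. They are chr13:119690101-119690230 of Hmgcs1, chr5:114444084-114444269 of Mvk and chr13:8885526-8885605 of Idi1, all on the plus strand.
Hmgcs1: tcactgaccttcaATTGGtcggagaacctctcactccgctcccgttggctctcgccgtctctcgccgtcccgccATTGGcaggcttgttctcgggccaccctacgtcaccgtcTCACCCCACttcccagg
Mvk: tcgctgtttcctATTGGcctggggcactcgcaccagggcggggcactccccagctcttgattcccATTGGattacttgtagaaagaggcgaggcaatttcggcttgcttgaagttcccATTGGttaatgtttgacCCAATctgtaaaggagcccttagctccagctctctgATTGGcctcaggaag
Idi1: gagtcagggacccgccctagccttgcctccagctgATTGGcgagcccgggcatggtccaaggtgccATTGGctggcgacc

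In the optimal set, the peaks that the authors selected by irreproducible discovery rate (IDR, a measure of how well peak ranks recur between replicates), 7 of the 9 genes were occupied, 77.8% with a 95% Wilson interval of 45.3 to 93.7%. Over all protein-coding genes 7838 of 21317 were occupied, 36.8%. Among the 8773 optimal peaks of higher signal, 6 of the 9 genes kept a peak, against 26.9% of all genes. In as many top peaks of replicate 1 alone 7 of the 9 were occupied, against 37.9%, and in replicate 2 alone 7, against 36.6%. Because the genes were chosen with such counts known, nothing is read from the gap to the background. The genes not occupied were Pmvk and Fdft1, and both had optimal peaks farther from that start.

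The 9 genes fell into a strong and a weak group of peaks, with Mvk between them. Signal, the enrichment value of each peak as the authors' caller wrote it, on a scale the sources do not name, was over 400 at Mvd, Lss and Fdft1, and such signals made up 25.7% of the 6909 promoter peaks. It was below 50 at 5 genes, Hmgcs1, Pmvk, Idi1, Fdps and Sqle, a range that held 37.6% of promoter peaks. Promoter peaks lie within 1000 bp of an outermost start, so the Fdft1 and Pmvk peaks are not among the 6909. For Pmvk the peak near another RefSeq start was used. The median of all promoter peaks was 83.0 with quartiles of 35.4 and 410.0, and the median of the 7 occupied genes was 42.5. All 9 of these peaks had the highest rank score of 1000, so that score did not separate them.

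**Figure D1:**
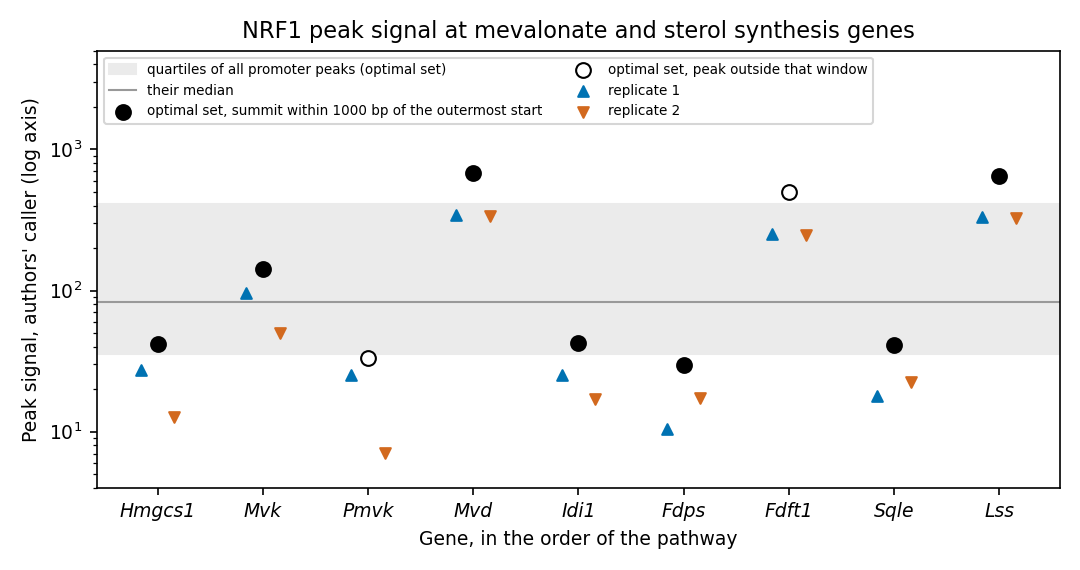
Signal of the peak of each gene in the optimal set (circles) and in replicates 1 and 2 (triangles), on a log axis, with genes in pathway order and the grey band from 35.4 to 410.0 for the quartiles of all promoter peaks. Mvd, Lss and Fdft1 lie above the band in the optimal set, and the open circles mark Pmvk and Fdft1, whose peaks lie outside the 1000 bp window.

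The first enzymes of the list differed widely in signal. Hmgcs1 encodes cytosolic HMG-CoA synthase, an early enzyme of the pathway. Its peak (chromosome 13, 119689953 to 119690296, mm10) had a signal of 27.2 in replicate 1 and 12.8 in replicate 2, a mean of 20.0 ± 10.2 (SD, n = 2). In the optimal set it reached 42.0, rank 8216 of 17547 peaks, with the summit 226 bp before the start. This is the widest relative gap between replicates among the 7 occupied genes.

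Mvk encodes mevalonate kinase, which adds the first phosphate to mevalonate. Its peak (chromosome 5, 114443961 to 114444099) had 95.5 in replicate 1 and 49.8 in replicate 2, a mean of 72.7 ± 32.4 (SD, n = 2), and 143 in the optimal set, rank 4263. The summit lay at -270 from the Mvk start. The divergent gene Mmab, which encodes an enzyme of cobalamin metabolism in mitochondria, starts 191 bp upstream of Mvk, and the same summit lay 79 bp inside Mmab. The peak thus belongs to a shared promoter and cannot be given to either gene.

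Pmvk encodes phosphomevalonate kinase, the next step. No optimal summit lay within 1000 bp of its outermost start, and the nearest, 2367 bp downstream, had 5.57 in replicate 1, 8.48 in replicate 2 and 14.2 in the optimal set. A stronger peak (chromosome 3, 89458926 to 89459269) lay 473 bp before another RefSeq start of the gene, with 25.1 in replicate 1, 7.01 in replicate 2 and 33.4 in the optimal set. Neither peak was in the conservative set. With every RefSeq start allowed, 8 of the 9 genes were occupied, against 39.9% of all genes.

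Mvd encodes mevalonate diphosphate decarboxylase, which yields isopentenyl diphosphate. It carried the strongest peak of the 9 genes (chromosome 8, 122443433 to 122443839), with 342 in replicate 1 and 337 in replicate 2, a mean of 339.6 ± 3.43 (SD, n = 2). The signal of 677 in the optimal set ranked 15 of 17547, at percentile 99.8 of promoter peaks. The summit lay at -221 from the Mvd start and 13 bp before the start of 9330133O14Rik, a divergent long noncoding RNA that begins 234 bp upstream of Mvd. The peak, like that of Mvk, thus cannot be given to either gene alone. A further peak of 81.9 lay at -1217, with 47.9 in replicate 1 and 33.0 in replicate 2.

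The genes of the isoprenoid steps had weak peaks. Idi1 encodes the isomerase that interconverts the isoprenoid units, and its peak (chromosome 13, 8885606 to 8885949) had 25.1 in replicate 1, 17.1 in replicate 2, a mean of 21.1 ± 5.64 (SD, n = 2), and 42.5 in the optimal set. Its summit lay 172 bp inside the gene. Fdps encodes farnesyl diphosphate synthase, the branch point to sterols and protein prenylation. Its peak (chromosome 3, 89102122 to 89102465) had 10.4 in replicate 1, 17.2 in replicate 2, a mean of 13.8 ± 4.78 (SD, n = 2), and 29.9 in the optimal set, the lowest signal of the occupied genes. Fdps also had the occupied summit farthest from a start, at -327, so it lay closest to the 1000 bp limit from inside, while the further Mvd summit at -1217 and the Pmvk summit at 2367 bp lay closest from outside.

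The sterol-specific steps held strong and weak peaks side by side. Fdft1 encodes squalene synthase, the first enzyme committed to sterols. Its peak (chromosome 14, 63177961 to 63178297) lay 3549 bp inside the gene as measured from the outermost RefSeq start, with 252 in replicate 1, 249 in replicate 2, a mean of 250.2 ± 2.00 (SD, n = 2), and 498 in the optimal set, rank 1554. Near the outermost start itself, only a relaxed peak of 6.87 at -833 was listed. Sqle encodes squalene epoxidase, a rate-limiting enzyme of the branch. Its peak (chromosome 15, 59314730 to 59315073) had 17.8 in replicate 1, 22.4 in replicate 2, a mean of 20.1 ± 3.25 (SD, n = 2), and 40.8 in the optimal set, with the summit at -190. Lss encodes lanosterol synthase, which closes the sterol rings. Its peak (chromosome 10, 76531415 to 76531774) had 331 in replicate 1, 326 in replicate 2, a mean of 328 ± 3.12 (SD, n = 2), and 649.6 in the optimal set, rank 103, with the summit 33 bp inside the gene.

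Of the 7 occupied genes, 5 had the summit before the outermost start, and Idi1 and Lss had it inside the gene. Measured from the Lss start of the promoter table, the Lss summit lay at -7. The replicates placed the summit within 11 bp of each other at 8 of the 9 genes and 28 bp apart at Fdps. Of the 9 peaks, 5 were 344 bp wide, the commonest width in the optimal set, held by 55.0% of promoter peaks. Peaks of that width are mostly weak ones, since all promoter peaks with a signal below 50 had it and 0.675% of those over 400 did.

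**Figure D2:**
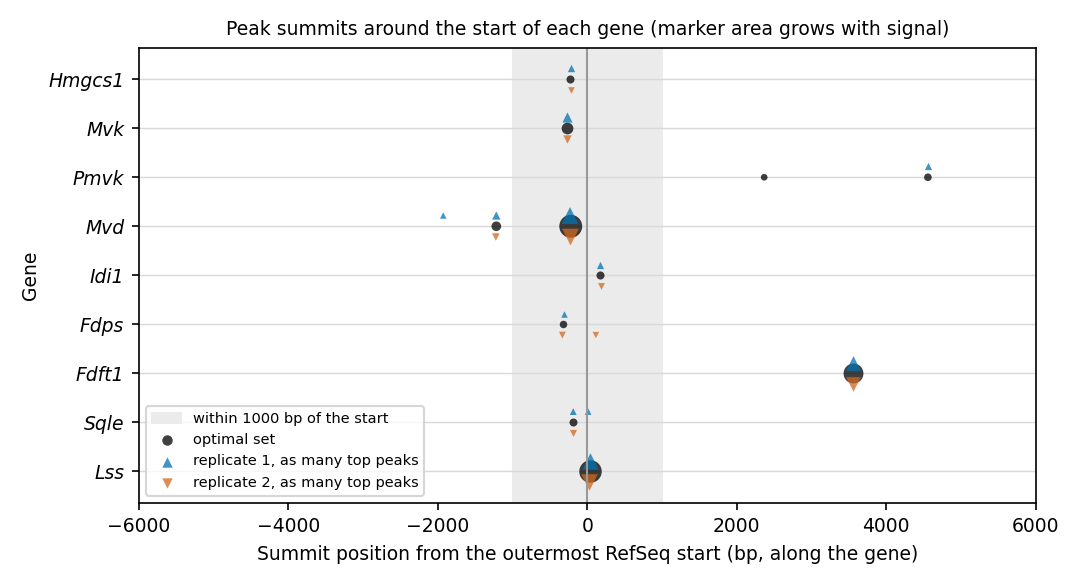
Position of each peak summit in bp from the outermost RefSeq start, along the gene, in the optimal set and in as many top peaks of each replicate, with marker area growing with signal. Summits of 7 genes lie inside the grey 1000 bp window, the Fdft1 summit lies at 3549 bp and the Pmvk summits at 2367 and 4557 bp.

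The replicates were compared by the log2 ratio of replicate 1 to replicate 2. The strong peaks were nearly equal, with 0.02 at Mvd, 0.02 at Fdft1 and 0.02 at Lss, where promoter peaks over 400 had a median of 0.01 and a 5th to 95th percentile range of -0.13 to 0.21. Weaker peaks spread more: the ratio was 1.09 at Hmgcs1, 0.94 at Mvk, 0.55 at Idi1, -0.33 at Sqle and -0.72 at Fdps. Promoter peaks with signals of 25 to 50 ran from -1.01 to 1.51, which takes in Hmgcs1, Idi1, Sqle and Fdps, and those of 100 to 200 ran from -0.34 to 1.00, which takes in Mvk. The ratio of 1.84 at the internal Pmvk start was beyond the range for its signal. Signal was higher in replicate 1 at 7 of the 9 genes and in replicate 2 at Fdps and Sqle. Promoter peaks in general also leaned to replicate 1. Their median ratio was 0.10, with 0.21 for signals of 25 to 50 and 0.37 for those of 100 to 200. The replicate values of Hmgcs1, Idi1 and Sqle overlapped, and those of Fdps overlapped Hmgcs1 and Idi1 but lay below Sqle. In order of level, Mvd, Lss, Fdft1 and Mvk did not overlap with each other, nor with the weaker peaks.

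**Figure D3:**
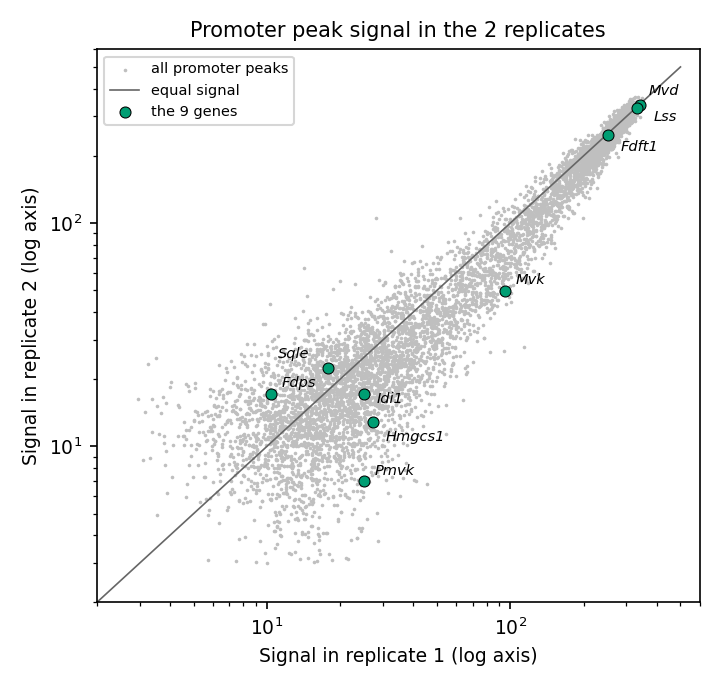
Signal of each promoter peak in replicate 1 against replicate 2, both on log axes, with all promoter peaks in grey and the 9 genes in green. Mvd, Lss and Fdft1 lie on the line of equal signal, and Pmvk lies farthest below it among the 9 genes.

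A separate mm9 peak set, made from both replicates and matched to all GENCODE vM1 starts, also had Mvd, Lss and Fdft1 as its strongest of these genes. There 7 of the 8 genes in the annotation were occupied, against 33.1% of all genes, and Hmgcs1 was not in that annotation. Signals on mm9 are on another scale: they were 9832 at Mvd (rank 93 of 11216), 4685 at Lss (rank 528) and 1740.4 at Fdft1 (rank 1663). Mvk had 239, and Pmvk, Idi1 and Sqle had 60.0, 55.9 and 45.7. Fdps had no promoter peak there. The Fdft1 summit lay at -349 from the nearest GENCODE start and the Pmvk summit at -20, so on these start sites both genes were occupied. On mm9 annotation the Mvk summit lay in a UTR of Mmab, the Idi1 summit in a UTR of Idi1, the Lss summit in an exon of Lss and the Mvd summit in an intron of Gm20388, while those of Pmvk, Fdft1 and Sqle were intergenic.

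The best matches to the NRF1 consensus lay under the 3 strong peaks. The motif was sought as GCGCATGCGC and GCGCACGCGC on both strands, overlaps allowed. Within 50 bp of the mm9 summit, 0 of the 7 peaks held an exact match, against 11.3% of 6770 promoter peaks. Up to 1 mismatch was found at Mvd, Fdft1 and Lss, 3 of 7, against 37.9% of promoter peaks, 83.9% of those at or above the upper quartile of signal and 8.62% of those at or below the lower quartile. The centres of these sites lay 10.5, 9.50 and 8.50 bp from the summits of Mvd, Fdft1 and Lss. Mvk, Pmvk, Idi1 and Sqle had no match with fewer than 3 mismatches. The half-site GCGCA or TGCGC was present at 6 of 7, all but Idi1, against 71.9% of promoter peaks.

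**Figure D4:**
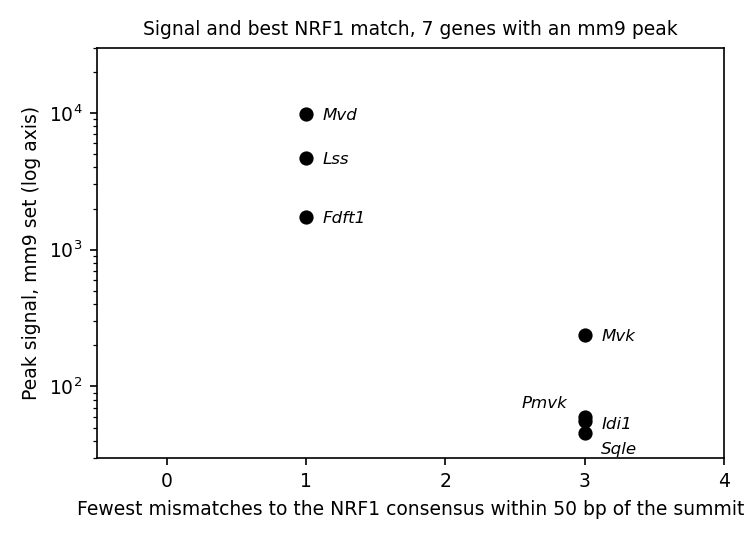
Fewest mismatches to the NRF1 consensus within 50 bp of the summit against peak signal in the mm9 set (log axis) for the 7 genes with an mm9 promoter peak. The genes with 1 mismatch, Mvd, Lss and Fdft1, have the highest signals, and the other 4 genes have 3 mismatches.

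In the mm10 promoter windows, Mvd and Lss again had the closest matches, while the summits of Mvk, Pmvk and Idi1 lay outside their own windows. The Hmgcs1 summit, at -226, lay inside its window. The closest match there, at -24 to -15, had 2 mismatches and lay 206 bp from the summit, and the window held 0 half-sites. In Mvd, GCGCATGCGT at -211 to -202 differs from the first form by C10T, counting from 1 at the 5′ end of the consensus, and its centre lay 14.5 bp from the optimal summit. A second Mvd match, ACGCCTGCGC at -235 to -226, with G1A and A5C, lay 9.50 bp from it. In Lss, GCGCCTGCGC at -11 to -2 differs by A5C, and its centre lay 0.500 bp from the summit. No window of the 6 genes held an exact consensus, which 3.58% of 17274 protein-coding genes had, and 2 of the 6 had 1 mismatch or fewer, against 14.6%. Among windows with an optimal summit inside, 1 mismatch or fewer was found in 81.0% of those with signal over 400 and in 7.38% of those below 50. At the Mmab start, whose peak is that of Mvk, 2 overlapping half-sites at 31 to 36 lay at the summit, which was at 33.

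The elements known for sterol genes were counted in the promoter windows, which do not always hold the peak. Pmvk has 2 windows, and its 1 CCAAT lies at the outermost start, away from any optimal summit, while the window nearer its stronger peak has 0. The sterol regulatory element, sought as TCACNCCAC on both strands, was in the promoter windows of 1 of the 6 genes, Hmgcs1, at -137 to -129, against 1.42% of genes. CCAAT was in a window of each of the 6 genes, with 5 copies in Mvk and 4 in Hmgcs1, against 42.7% of genes. The GC box GGGCGG was in 5 of the 6 genes, all but Pmvk, against 49.8%, and the ETS motif CCGGAAGT was in 0, against 5.76%. Within 500 bp of any GENCODE start on mm9, CCAAT was in 8 of 8 genes against 82.3%, and the sterol regulatory element was in Lss alone, 1 of 8, against 6.96%. Hmgcs1 was not among these 8, because that annotation lacks it. A match is a description of letters and not a bound site, and no binding of these factors was measured.

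Genes around the pathway were counted from lists of related enzymes and regulators. In late sterol synthesis, which carries lanosterol to cholesterol, 8 of 10 genes were occupied (80.0%, against 36.8% of all genes). Dhcr7, which makes the last reduction to cholesterol, had 464 and Ebp had 145, while Cyp51 and Tm7sf2 were not occupied. Acat2, the cytosolic thiolase that starts the pathway, had 620.3, with 312 in replicate 1 and 312 in replicate 2, and Acat1, a mitochondrial thiolase, had 22.9. Idi2, the paralog of Idi1, had no summit nearer than 35982 bp.

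In other isoprenoid branches 9 of 11 genes were occupied (81.8%, against 36.8% of all genes), led by Rabggtb (602), which attaches isoprenoids to Rab proteins, Coq2 (519.7), of ubiquinone synthesis, and Ggps1 (347), with Pdss1 and Pdss2 not occupied. Sterol regulation and transport had 13 of 18 occupied (72.2%, against 36.8%). Its strongest were Mbtps1 (610.1), a protease that cuts SREBP, Scap (594), the SREBP escort, and Npc1 (294), a cholesterol transporter. Insig2 and Mylip were among those not occupied. Srebf2, which encodes an SREBP factor and was chosen after its value was seen, had 39.7. In fatty acid synthesis 3 of 8 were occupied (37.5%, near the 36.8% of all genes), Fasn with 463, Acaca with 246 and Acly with 24.0, and Acss2 and Elovl6 were not. With any RefSeq start allowed, Pdss2, Insig2 and Srebf1, the other SREBP gene, were also occupied. In the mm9 set, matched to all GENCODE starts, Cyp51 and Pdss1 were occupied. The mm9 counts were still 8 of 10 in late sterol synthesis and 9 of 11 in the isoprenoid branches, against 33.1% of all genes. The lists' median signals were 108 in late sterol synthesis, 40.4 in the isoprenoid branches, 60.4 in regulation and transport and 246 in fatty acid synthesis, on both sides of the 83.0 of all promoter peaks.

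**Figure D5:**
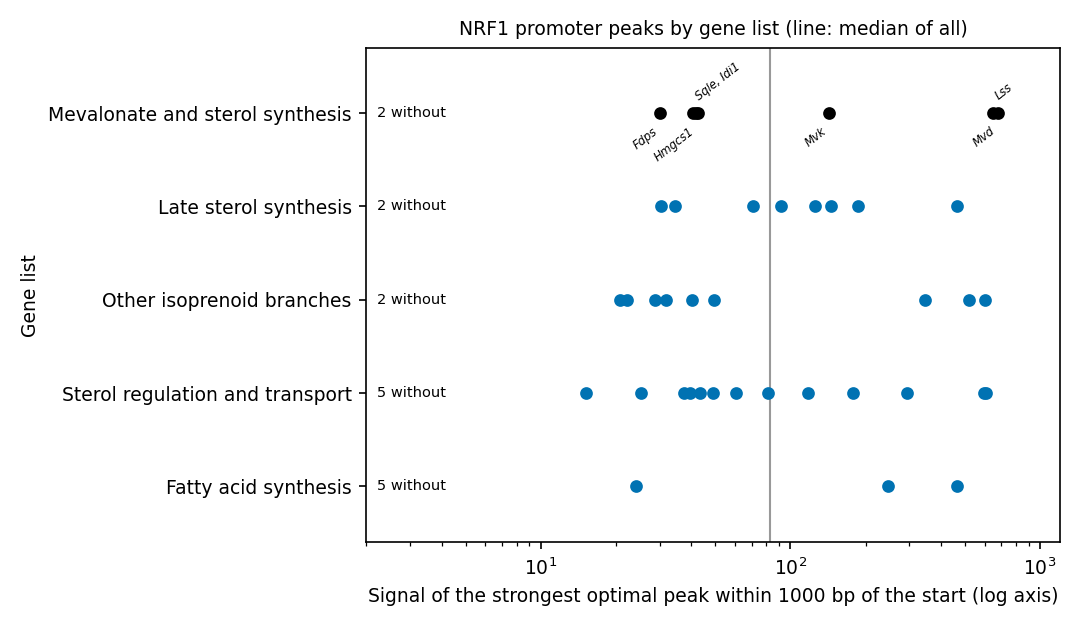
Signal of the strongest optimal peak within 1000 bp of the start for each occupied gene of 5 gene lists, on a log axis, with names in the top row only, with the number of genes without a peak at the left and a line at the median of all promoter peaks, 83.0. In the top row Mvk, Mvd and Lss lie right of the line, and 4 genes lie left of it.

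Signal cannot be turned into an amount of bound protein, because neither the read depth nor the scaling is known. The replicates share 1 cell line, so their spread covers repeat experiments on that line alone.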

How the data were processed

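Deposited peak lists were the starting point. According to the samples' deposited notes, the mm10 relaxed lists (each replicate, and both pooled) were called against a control, and IDR selected the conservative and optimal sets from them. The mm9 set came from both replicates. No source used here names the aligner, caller, thresholds or read number, and the depth is therefore unknown. The signal of each peak was computed by the authors' caller and was ranked only within a list. Replicate signals were also set side by side as ratios and means, which assumes that both relaxed lists were scaled alike, and that was not tested. The rank score of the IDR sets was deposited by the authors and used as a description. Signals on mm9 and mm10 were never compared.

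Peaks on chromosomes 1 to 19 and X were kept. Gene positions were those of RefSeq GRCm38.p6. Strand came from the RefSeq promoter table for 17274 genes, and from GENCODE vM1 by symbol for 3649 and by synonym for 394, and 314 genes without a strand were left out. As a check of strand, summits lay near the start of 7838 genes and near the 3′ end of 642. Replicate signals came from the overlapping relaxed peak (at least 1 bp). Motif matches may overlap, and a gene counts once however many it holds. Scripts ran in Python 3.11.15 with pandas 2.3.3 and were tested on simulated data. Wilson intervals cover counting error only.

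Members and lists were chosen with earlier results of these data known. Named genes are the 9 members, divergent neighbours, and of each other list the 3 strongest occupied and the first 2 unoccupied in alphabetical order. Some genes that the rule names are not reported here. Alternatives were the conservative set, the higher-signal peaks, each replicate alone, 500 and 2000 bp windows, mm9, other motif settings and, added after seeing the data, all RefSeq starts.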

Additional observations from a re-analysis of the deposited data

How the results depend on the processing

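The count of 7 occupied genes of 9 was the same in the conservative set, where 35.5% of all genes were occupied. It was also the same in replicate 1 (37.9% of all genes) and replicate 2 (36.6%) alone. Promoters of 500 bp (33.7%) and 2000 bp (39.2%) gave 7 as well. The count was 6 among the peaks of higher signal (26.9%), 8 with all RefSeq starts (39.9%) and 7 of 8 on mm9 (33.1%). Of the values that answer a comparison, 62 recomputed ones stayed within their limits and 5 did not. The limit for a count was a fixed fold change from its main value. For the median rank it was the SD of the single-replicate values, which is narrow where the replicates give like ranks. Occupied genes of the other isoprenoid branches fell from 9 of 11 to 5 of 11 among the higher-signal peaks. The share of all genes also fell there, from 36.8% to 26.9%. Those of late sterol synthesis stayed within their limit. They still ran from 6 of 10 with promoters of 500 bp (33.7% of all genes) to 10 of 10 in replicate 1 alone (37.9%). Peaks with an NRF1 site near the mm9 summit went from 0 with the exact consensus to 3 with up to 1 mismatch and 6 with the half-site. The median rank of the occupied genes, 8156 in the optimal set, ran from 7410 to 7602 when a replicate was left out. Without replicate 1 the rank of Mvd went from 15 to 65, that of Hmgcs1 from 8216 to 12409 and that of Idi1 from 8156 to 9355. Without replicate 2 the rank of Fdps went from 10385 to 16424 and that of Mvd to 6. The causes were not tested. Read depth is unknown, so what it limits could not be measured, but the replicates differed more at weak peaks than at strong ones.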
